A study of Mus musculus with 4 samples.

Results

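The genes of collagens, laminins and their basement membrane partners were examined in GCE (granule-cell-enriched) tissue of the cerebellar vermis. They were chosen by symbol: genes named Col, a number, a and a number, genes whose symbol starts with Lama, Lamb or Lamc and a digit, and the linkers Nid1, Nid2, Hspg2 and Agrn. This gave 59 of the 24532 genes in the deposited tables. Bulk RNA was sequenced from 2 Kdm3b+/- mice and 2 WT mice, with 1 library per mouse. The animals were adult males, and the WT mice were littermates of the mutants. Kdm3b+/- mice carry 1 allele of the histone demethylase gene Kdm3b that is interrupted by the gene-trap vector pGT0lxf in all cells, and they descend from a single ES cell line whose offspring were backcrossed to C57Bl/6N and later crossed to C57Bl/6J. WT mice carry no trapped allele, and no treatment is described for the sequenced mice. The authors dissected GCE tissue by hand out of slices of the vermis, and the labels name it as cerebellum.

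Collagens are chains that wind around each other into a rope-like helix outside the cell, and fibrillar collagens line up into the fibers of connective tissue. Laminins are cross-shaped assemblies of an alpha, a beta and a gamma chain that form, with a network of collagen IV, the basement membrane, a thin sheet under endothelium, around vessels and below the pia. In the adult brain this matrix is largely confined to blood vessels and meninges, nidogens link its networks, and neurons and glia add members of their own, such as agrin at synapses.

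Each value is a TPM, a measure of transcript number that is divided by gene length and sums to 1000000 in a library. The libraries held between 4.92 and 6.69 gigabases of aligned sequence. Kdm3b had a TPM of 9.10 and 11.0 in WT mice and 8.30 and 7.90 in Kdm3b+/- mice, without overlap, and a log2 fold change of -0.27 that did not pass the test (limma, adjusted p = 0.424). It was -0.13 after a correction for transcript length and GC content, -0.15 without WT mouse 2 and -0.40 without WT mouse 1. The deposited value covers the whole gene, and reads of the trapped and the intact allele were not told apart. The cause of the small difference was not tested. All 12 markers of granule cells were detected in each library, with a summed TPM of 4067 and 4857 in WT mice and 4202 and 4341 in Kdm3b+/- mice. Markers of Purkinje cells, astrocytes, oligodendrocytes and microglia were detected in each library as well. Purkinje cell markers summed to a TPM of 2050 in WT mouse 1 and to between 893 and 1146 in the other mice, so WT mouse 1 stood apart in them.

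No collagen, laminin or linker gene passed the test used here, limma on TPM, for a difference between genotypes. The study itself lists Col18a1 and Col27a1 as differentially expressed (DEX) genes from these libraries by its count test, which was not repeated. A mean TPM of 1 was required for testing, and 21 of the 59 genes reached it. A gene was called if it had a fold change over 1.2 and a p under 0.05 after Benjamini-Hochberg adjustment over 13652 genes, and 0 of the 21 genes were called (limma). Across all 13652 tested genes 0.461% were called, 0.117% as higher and 0.344% as lower in Kdm3b+/- mice. Before adjustment, 3 of the 21 genes (14.3%) had a p under 0.05, against 17.0% of all tested genes, of which 5.47% were higher and 11.5% lower in Kdm3b+/- mice. The 3 genes were Col18a1 and Col1a2, with lower values, and Col27a1, with higher values in Kdm3b+/- mice. Without WT mouse 1 their log2 fold changes were -0.57, -0.64 and 0.55, and with all mice -0.67, -0.56 and 0.57. Without WT mouse 2 they were -0.77, -0.48 and 0.60. Without Kdm3b+/- mouse 1 they were -0.64, -0.27 and 0.76, and without Kdm3b+/- mouse 2 -0.70, -0.85 and 0.39. After a correction for transcript length and GC content they were -0.47, -0.35 and 0.70. In that fit the unadjusted p was 0.0519 for Col18a1, 0.0889 for Col1a2 and 0.00259 for Col27a1 (limma). Without that correction, adjusted p-values of the 21 genes ranged from 0.158 to 0.990. With 2 mice against 2, the smallest p of an exact permutation test is 0.333, two-sided, so no such test could pass 0.05. In bulk tissue, fewer cells of a type and less RNA per cell cannot be told apart.

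The promoters of the 3 genes with the lowest p-values are shown because their values stood farthest from 0 in the genotype comparison. Each is the 250 bases before a RefSeq start (GRCm38.p6), written from 5′ to 3′ on the strand of the gene. Capitals mark matches, on either strand, to the letters GGGCGG of the GC box, to the CCAAT box that bears the name of its own letters, or to the letters TATAAA of the TATA box. No match overlaps another in the windows shown. Col18a1 has entries for 2 starts, at chr10:77166531-77166780 and chr10:77113706-77113955, both on the reverse strand. The windows of Col27a1, chr4:63215162-63215411, and Col1a2, chr6:4505368-4505617, are on the forward strand.
Col18a1, first start: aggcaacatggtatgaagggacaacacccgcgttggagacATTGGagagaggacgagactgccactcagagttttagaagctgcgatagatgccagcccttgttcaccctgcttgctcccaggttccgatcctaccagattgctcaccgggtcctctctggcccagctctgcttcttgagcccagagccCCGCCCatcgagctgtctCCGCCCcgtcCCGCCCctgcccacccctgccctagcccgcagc
Col18a1, second start: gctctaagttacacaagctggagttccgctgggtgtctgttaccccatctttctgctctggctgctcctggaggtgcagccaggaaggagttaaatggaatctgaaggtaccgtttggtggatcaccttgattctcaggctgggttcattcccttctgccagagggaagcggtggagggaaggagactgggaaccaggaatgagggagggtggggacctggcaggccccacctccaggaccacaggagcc
Col27a1: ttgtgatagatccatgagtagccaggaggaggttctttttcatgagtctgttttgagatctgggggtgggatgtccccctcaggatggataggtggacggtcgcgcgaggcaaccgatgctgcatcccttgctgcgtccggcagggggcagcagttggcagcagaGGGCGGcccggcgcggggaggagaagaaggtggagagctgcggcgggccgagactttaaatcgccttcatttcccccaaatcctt
Col1a2: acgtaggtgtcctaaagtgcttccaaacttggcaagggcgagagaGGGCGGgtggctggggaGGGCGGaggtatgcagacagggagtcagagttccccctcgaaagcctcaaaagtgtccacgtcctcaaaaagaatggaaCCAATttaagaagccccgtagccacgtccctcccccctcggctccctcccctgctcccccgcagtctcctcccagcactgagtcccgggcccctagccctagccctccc

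The first Col18a1 promoter held 3 GC boxes, 1 CCAAT box and 12 CpG pairs, and the second held none of the motifs and 3 CpG pairs. The Col27a1 promoter held 1 GC box and 15 CpG pairs, and the Col1a2 promoter 2 GC boxes, 1 CCAAT box and 11 CpG pairs. No TATAAA stood in these windows. RefSeq promoters were found for 43 of the 59 genes, 48 in all. A GC box occurred in 58.3% of the 48, against 32.7% of all 32841 promoters of this length. A CCAAT box occurred in 31.3% against 33.9%, and a TATA box in 10.4% against 12.4%. The 48 promoters had a median of 9.5 CpG pairs and a GC content of 60%, and all promoters a median of 6 CpG pairs and 52.4%. These letters are a description of the windows and not of bound factors.

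Most of these genes were low in GCE tissue. The median of the mean TPM was 3.02 over the 21 tested genes, against 19.0 over all tested genes. The summed TPM of the 59 genes was 86.5 and 99.7 in WT mice (93.1 ± 9.32, SD, n = 2) and 77.0 and 102 in Kdm3b+/- mice (89.5 ± 17.6, SD, n = 2). The Kdm3b+/- values lay on both sides of the WT values. The tested genes made up between 84.8% and 87.0% of this sum in each library. Their read coverage, the mean depth over the exons of a gene, ranged from 1.55 to 54.2, with a median of 7.32. The levels of the lowest genes thus rest on a low read depth.

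**Figure D1:**
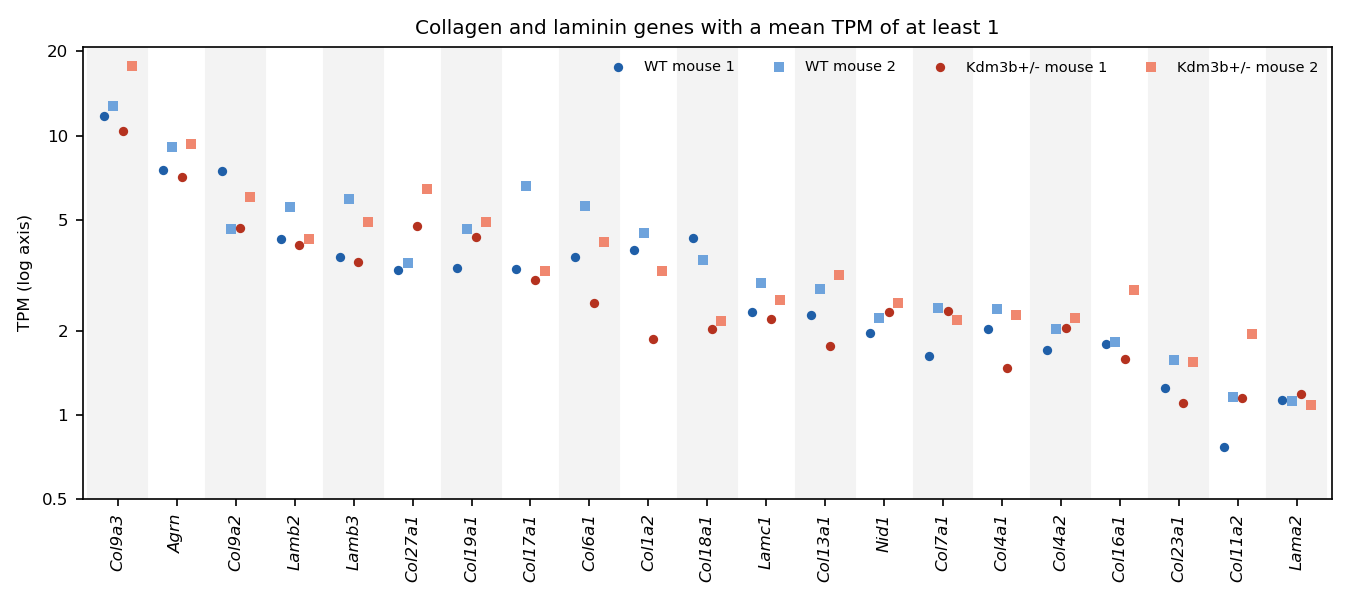
TPM on a log axis of the 21 tested genes, ordered by mean, with 1 point per mouse (blue WT, red Kdm3b+/-, circles mouse 1, squares mouse 2). Col9a3 lies highest, between 10.4 and 17.7, and squares lie above circles of the same color for most genes.

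Among the fibrillar collagens, 3 of 11 genes were tested. Col27a1 (NCBI gene 373864, chr4:63215412-63334990, forward strand), a fibrillar collagen known from cartilage, had a TPM of 3.31 and 3.48 in WT mice and 4.76 and 6.44 in Kdm3b+/- mice. Both Kdm3b+/- values lay above both WT values. On the log2(TPM + 1) scale, its log2 fold change was 0.57 (SE 0.19, limma adjusted p = 0.210). Col1a2 (NCBI gene 12843, chr6:4505618-4541543, forward strand), a chain of collagen I, had a TPM of 3.88 and 4.47 in WT mice and 1.87 and 3.28 in Kdm3b+/- mice. The groups did not overlap, but the Kdm3b+/- mice lay farther from each other than the nearer one lay from the WT mice, and the log2 fold change was -0.56 (SE 0.22, limma adjusted p = 0.261). Without Kdm3b+/- mouse 1 it was -0.27. Col11a2, whose chain joins collagen II fibrils in cartilage, had a TPM of 0.767 and 1.16 in WT mice and 1.14 and 1.94 in Kdm3b+/- mice. The groups of Col11a2 overlapped (log2 fold change 0.36, limma adjusted p = 0.439). Its log2 fold change was 0.14 without Kdm3b+/- mouse 2, 0.22 without WT mouse 1 and 0.59 without Kdm3b+/- mouse 1.

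The 8 other fibrillar collagens had a mean TPM under 1. Col1a1, the partner chain of Col1a2, had a TPM of 0.617 and 0.831 in WT mice and 0.540 and 0.596 in Kdm3b+/- mice. The ratio of Col1a2 to Col1a1 ranged from 3.46 to 6.29 over the libraries, with the lowest in Kdm3b+/- mouse 1. The Kdm3b+/- values of Col5a3 and Col1a1 lay below the WT values, and those of Col3a1 and Col2a1 above them. The summed TPM of the 11 fibrillar collagens was 12.2 and 12.9 in WT mice and 10.9 and 15.5 in Kdm3b+/- mice, on both sides of the WT values.

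Col18a1 (NCBI gene 12822, chr10:77052179-77166530, reverse strand) encodes collagen XVIII, a multiplexin of vascular and epithelial basement membranes whose tail is released as endostatin. Its TPM was 4.28 and 3.60 in WT mice and 2.03 and 2.16 in Kdm3b+/- mice. The groups did not overlap, and the gap between them was wider than the spread within either. The mean in Kdm3b+/- mice was 0.532 times the WT mean, and the log2 fold change was -0.67 (SE 0.18), the largest of the 21 genes in size. It did not pass the test used here (limma, adjusted p = 0.158, unadjusted rank 442 of 13652). The tables give 1 value for the gene and do not separate its 2 starts. The related Col15a1 was near the limit of detection, at a mean TPM of 0.0706.

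**Figure D2:**
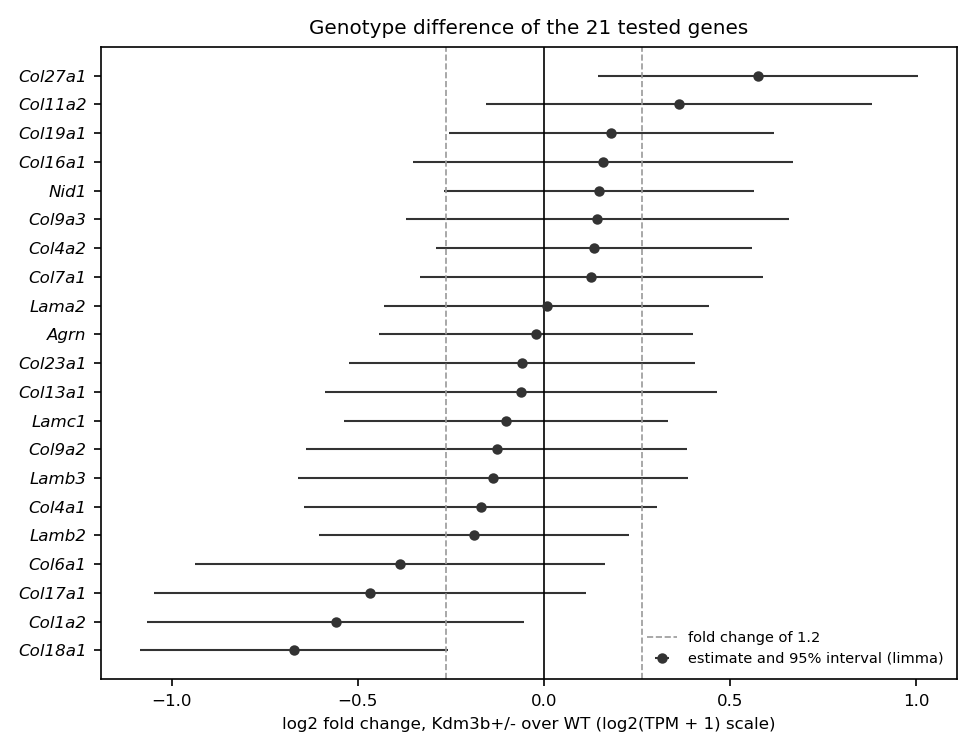
Log2 fold change of Kdm3b+/- over WT mice for the 21 tested genes, with 95% intervals from limma on the log2(TPM + 1) scale; dashed lines mark a fold change of 1.2. The intervals of Col18a1, Col1a2 and Col27a1 leave out 0, and those of the other 18 genes include it.

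The transmembrane collagens span the cell membrane and can be shed from it, and 3 of 4 were tested. Col17a1, a collagen of hemidesmosomes in skin, had a TPM of 3.33 and 6.60 in WT mice and 3.04 and 3.26 in Kdm3b+/- mice. The groups did not overlap, yet WT mouse 1 lay closer to the Kdm3b+/- mice than to WT mouse 2, and the log2 fold change of -0.47 had an SE of 0.26 (limma, adjusted p = 0.380). Without WT mouse 2 the log2 fold change of Col17a1 was -0.06. Col13a1, a collagen of the neuromuscular junction, and Col23a1 overlapped between groups, at TPM between 1.76 and 3.16 and between 1.10 and 1.57. Col25a1 stayed under a TPM of 0.1 in each library.

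The fibril-associated collagens decorate the surface of fibrils, and they held the highest gene of all, Col9a3, a chain of collagen IX. The TPM of Col9a3 (NCBI gene 12841, chr2:180598222-180622185, forward strand) was 11.7 and 12.7 in WT mice and 10.4 and 17.7 in Kdm3b+/- mice. The Kdm3b+/- mice were the lowest and the highest of the 4 (log2 fold change 0.14, limma adjusted p = 0.777). Col9a2, another chain of collagen IX, had a TPM of 7.47 and 4.63 in WT mice and 4.68 and 6.03 in Kdm3b+/- mice, and these groups overlapped (log2 fold change -0.13, limma adjusted p = 0.801). Col9a1, the remaining chain, had a mean TPM of 0.692. The chains of collagen IX were thus unequal in level: Col9a3 stood between 1.57 and 2.94 times above Col9a2 and between 14.0 and 22.7 times above Col9a1 in TPM. The Col9a3 model shares 229 bases with the opposite-strand gene Tcfl5, whose TPM was at most 0.204.

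Col19a1, a collagen that neurons also make and that is tied to the formation of synapses, had a TPM of 3.37 and 4.62 in WT mice and 4.33 and 4.91 in Kdm3b+/- mice (log2 fold change 0.18, limma adjusted p = 0.655). Col16a1 had a TPM of 1.79 and 1.83 in WT mice and 1.58 and 2.81 in Kdm3b+/- mice (log2 fold change 0.16, limma adjusted p = 0.749). Both overlapped between the groups, as did Col20a1, the highest of the untested genes at a mean TPM of 0.958. Of the other low genes of this class, Col12a1 and Col14a1 had higher values in both Kdm3b+/- mice than in both WT mice, as had Col9a1.

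Collagen IV forms the network of the basement membrane, and its common chains Col4a1 and Col4a2 were tested. Col4a1 had a TPM of 2.03 and 2.39 in WT mice and 1.47 and 2.28 in Kdm3b+/- mice (log2 fold change -0.17, limma adjusted p = 0.707). Col4a2 had a TPM of 1.70 and 2.02 in WT mice and 2.05 and 2.23 in Kdm3b+/- mice (log2 fold change 0.13, limma adjusted p = 0.744). Col4a1 overlapped between groups and Col4a2 did not, although the gap was small. These genes lie head to head on chromosome 8 with models that overlap by 22 bases, and the chains they encode are built together. The ratio of Col4a1 to Col4a2 was 1.19 and 1.18 in WT mice and 0.717 and 1.02 in Kdm3b+/- mice, a difference that was not tested. The chains Col4a3 to Col4a6, which are typical of kidney, lung and other specialized membranes, had mean TPM between 0.0614 and 0.530. Their genes form head-to-head pairs too, with 71 bases between Col4a4 and Col4a3 on chromosome 1 and 1342 bases between Col4a6 and Col4a5 on chromosome X.

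Of the collagens of beaded filaments and anchoring fibrils, Col6a1 and Col7a1 were tested. Col6a1, a chain of collagen VI, had a TPM of 3.68 and 5.58 in WT mice and 2.50 and 4.15 in Kdm3b+/- mice. The groups overlapped, with the lowest value in Kdm3b+/- mouse 1 (log2 fold change -0.39, limma adjusted p = 0.439). Without Kdm3b+/- mouse 1 the log2 fold change was -0.11, without WT mouse 2 it was -0.14, without WT mouse 1 -0.63 and without Kdm3b+/- mouse 2 -0.66. Its partner Col6a2, which lies 85.2 kb away on the same strand of chromosome 10, had a mean TPM of 0.872, and Col6a3 one of 0.0858. Col6a1 stood between 3.08 and 6.71 times above Col6a2 in TPM. Col7a1, the collagen of anchoring fibrils, ranged from 1.62 to 2.42 and overlapped between groups.

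Laminin chains were represented by 11 genes, of which 4 were tested. Lamb2, the beta chain of synaptic and vascular basement membranes, had a TPM of 4.25 and 5.54 in WT mice and 4.06 and 4.24 in Kdm3b+/- mice. The groups touched without overlap (log2 fold change -0.19, limma adjusted p = 0.629), and the log2 fold change was -0.029 without WT mouse 2 and -0.35 without WT mouse 1. Lamb3, a beta chain best known from skin, had a TPM of 3.68 and 5.90 in WT mice and 3.53 and 4.89 in Kdm3b+/- mice (log2 fold change -0.14, limma adjusted p = 0.791). Lamc1, the gamma chain of most laminins, had a TPM of 2.33 and 2.97 in WT mice and 2.20 and 2.58 in Kdm3b+/- mice (log2 fold change -0.10, limma adjusted p = 0.812). Lama2, an alpha chain of muscle and of vessel walls, was at 1.13 and 1.12 in WT mice and 1.19 and 1.08 in Kdm3b+/- mice (log2 fold change 0.01, limma adjusted p = 0.990). The last 3 overlapped between the groups, and Lama2 varied least.

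The ratios between laminin chains varied to different degrees. The ratio of Lamb2 to Lamc1 ranged from 1.64 to 1.87 over the 4 libraries and that of Lamb2 to Lama2 from 3.41 to 4.94. The ratio of Lamb2 to Lamb1 ranged more widely, from 3.55 to 8.38. The other alpha chains Lama1, Lama3, Lama4 and Lama5 had mean TPM between 0.0551 and 0.522. Lamc3 had a TPM of 0.692 and 1.08 in WT mice and 0.412 and 0.469 in Kdm3b+/- mice, without overlap. The ratio of Lamc1 to Lamc3 was 3.37 and 2.74 in WT mice and 5.35 and 5.51 in Kdm3b+/- mice, without overlap and without a test. The summed TPM of the laminin chains was 14.9 and 18.9 in WT mice and 13.6 and 15.8 in Kdm3b+/- mice, and these sums overlapped.

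Among the linkers and proteoglycans, agrin was the highest. Agrn (NCBI gene 11603, chr4:156165290-156197488, reverse strand), a heparan sulfate proteoglycan that gathers acetylcholine receptors at the neuromuscular junction, had a TPM of 7.52 and 9.08 in WT mice and 7.09 and 9.30 in Kdm3b+/- mice. The Kdm3b+/- values lay on both sides of the WT values (log2 fold change -0.02, limma adjusted p = 0.964). Its share of the summed TPM of the 59 genes moved little, between 8.70% and 9.20%. Nid1, a nidogen that joins the laminin and collagen IV networks, had a TPM of 1.96 and 2.22 in WT mice and 2.33 and 2.51 in Kdm3b+/- mice (log2 fold change 0.15, limma adjusted p = 0.709). The Kdm3b+/- values of Nid1 lay above the WT values, with a gap smaller than the spread within either group. Nid2 (mean TPM 0.567) and Hspg2, which encodes perlecan (mean TPM 0.0905), were not tested. The Nid2 model shares 386 bases with the opposite-strand gene Rtraf, whose TPM was between 128 and 155, and the strand of the counting is not given in the sources used here.

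The test had limited precision. The 95% intervals of the 21 log2 fold changes had half-widths between 0.41 and 0.58, with a median of 0.46. On the log2(TPM + 1) scale, 17 of the 21 intervals lay within 1 log2 unit of 0. The added 1 shrinks differences at a low TPM. With 0.1 added in its place, the log2 fold change of Col18a1 was -0.88, against -0.67, and that of Col11a2 0.61, against 0.36. The intervals therefore do not bound a change in TPM itself. These intervals are not adjusted for the number of genes, and Col18a1, Col27a1 and Col1a2 lay farther from 0 than their half-widths without passing the adjusted test. The groups did not overlap for 7 of the 21 genes (33.3%), 3 higher and 4 lower in Kdm3b+/- mice, against 51.3% of all tested genes, of which 19.2% were higher and 32.0% lower. A negative log2 fold change was found for 12 of the 21 genes (57.1%) and 60.4% of all tested genes. The median log2 fold change was -0.059 over the 21 genes and -0.070 over all tested genes, and the median of the 21 was 0.018 under quantile normalization and 0.093 after a correction for transcript length and GC content.

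Differences within a genotype were read beside those between genotypes. In log2(TPM + 1), the median difference over the 21 genes was 0.22 between the WT mice and 0.31 between the Kdm3b+/- mice, and 0.15 between the means of the genotypes. Over all tested genes the same medians were 0.19, 0.14 and 0.19. A difference between means of 2 mice tends to be smaller than one between single mice where genotype has no effect. Each median is therefore given beside the same median over all genes, although the 21 genes were lower in level. Their median of the mean TPM was 3.02, against 19.0 over all tested genes, and genes of like level were not compared. The difference between genotypes was larger than both differences within a genotype for 3 of the 21 genes (14.3%) and for 36.0% of all tested genes. The 3 genes were Col18a1, Col27a1 and Nid1.

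In both genotypes, most of the 21 genes had the higher value in the mouse numbered 2. WT mouse 2 had the higher TPM than WT mouse 1 for 18 of the 21 genes (85.7%), with a median ratio of 1.21, against 58.6% of all tested genes and a median ratio of 1.05. Kdm3b+/- mouse 2 had the higher TPM than Kdm3b+/- mouse 1 for 19 of the 21 (90.5%), with a median ratio of 1.31, against 58.6% and 1.03. The lowest value of the 4 was in Kdm3b+/- mouse 1 for 13 of the 21 genes, and the highest was in WT mouse 2 for 9 and in Kdm3b+/- mouse 2 for 9. The labels number the mice and do not say whether same-numbered mice shared a litter, a dissection or a preparation. The 21 genes had longer transcripts than all tested genes, with medians of 5629 and 3364 bases, and a higher GC content, with medians of 57.7% and 49.8%. After a loess correction of each library for length and GC content, chosen for this count after seeing the data, the counts were 7 of 21 in WT mice and 14 of 21 in Kdm3b+/- mice. The share over all genes after that correction is not given here, so these counts cannot be set beside 58.6%. The part of length and GC content in the pattern was not tested.

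**Figure D3:**
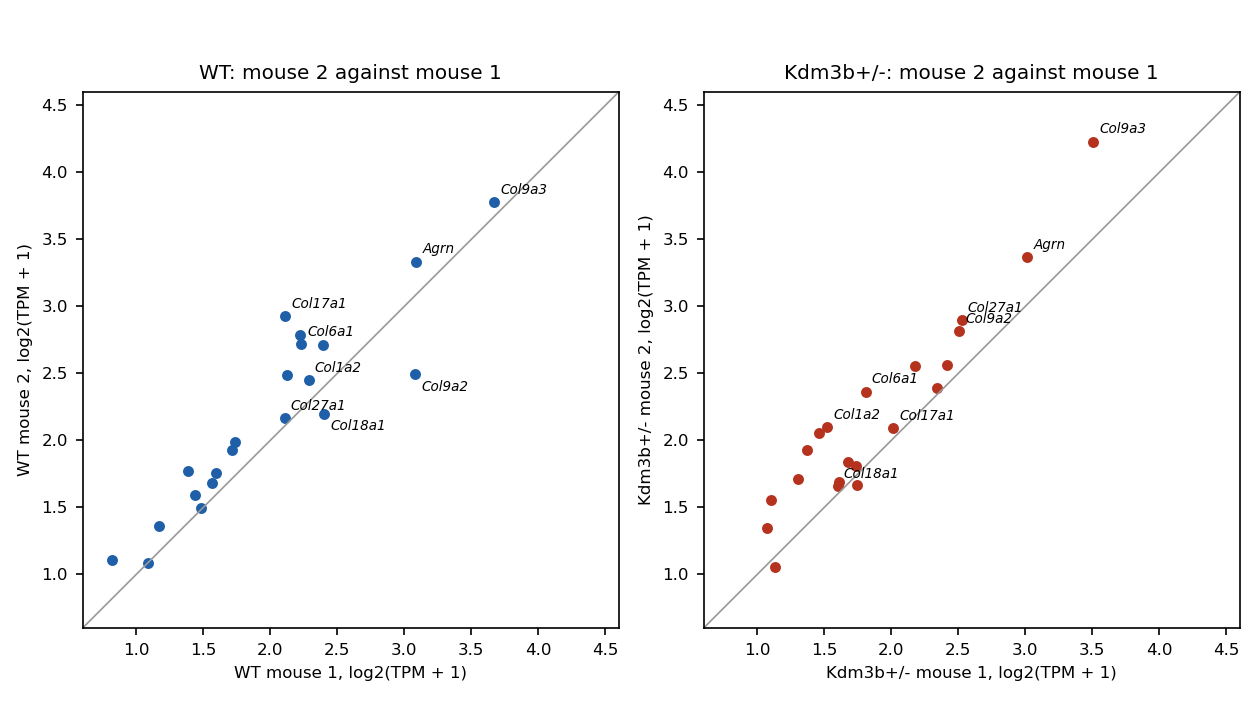
Level of the 21 tested genes in mouse 2 against mouse 1 of each genotype, as log2(TPM + 1); the line marks equal values and 8 genes are labeled. Above the line lie 18 of the 21 genes in WT mice and 19 of the 21 in Kdm3b+/- mice.

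The 38 genes below the minimum had mean TPM between 0.0152 and 0.958. Of these, 12 had a mean TPM of at least 0.5, 14 lay between 0.1 and 0.5, and 12 under 0.1. A TPM of 0 was listed in at least 1 library for 6 genes: Col4a4, Col6a5, Col6a6, Col10a1, Col22a1 and Col24a1. The other 53 of the 59 genes were above 0 in each library. The groups did not overlap for 13 of the 38 genes (34.2%), against 29.0% of all genes with a mean TPM under 1 and above 0. Values were higher in Kdm3b+/- mice for 6 of them, where 13.9% of low genes were, and lower for 7, where 15.1% were.

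When the fit was repeated without a minimum TPM, 5 of the 38 low genes had a p under 0.05 before adjustment, and 12.6% of all 19182 genes in that fit did. That share includes the genes above the minimum, and the share over low genes alone is not given here. No gene of the 59 was called in that fit, and the lowest adjusted p of the low genes was 0.312 (limma), for Col5a3. Col5a3, a chain of collagen V, had a TPM of 1.10 and 1.16 in WT mice and 0.385 and 0.617 in Kdm3b+/- mice. The others were Col3a1, a fibrillar collagen of vessel walls, Col2a1, the main collagen of cartilage, Lamc3 and Col8a2, a network collagen of the vessel and the cornea. Col3a1 had a TPM of 0.448 and 0.563 in WT mice and 0.863 and 1.05 in Kdm3b+/- mice. Col2a1 had a TPM of 0.213 in both WT mice and 0.409 and 0.446 in Kdm3b+/- mice. Col8a2 had a TPM of 0.506 and 0.508 in WT mice and 0.255 and 0.335 in Kdm3b+/- mice. Read coverage of the low genes was at most 3.23, so these values rested on a low read depth.

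**Figure D4:**
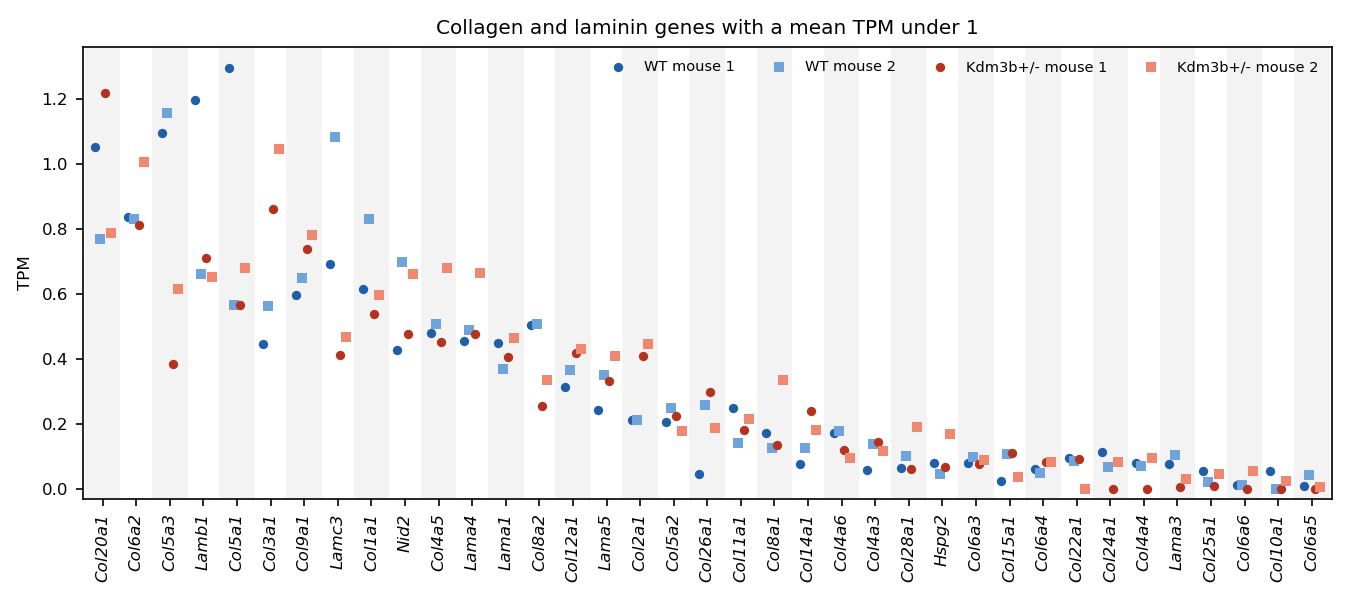
TPM of genes with a mean under 1, on a linear axis, without 1 gene that is not reported by itself, with 1 point per mouse (blue WT, red Kdm3b+/-, circles mouse 1, squares mouse 2). Col5a3, Lamc3 and Col8a2 show both Kdm3b+/- points below both WT points, and Col3a1 and Col2a1 the reverse.

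Collagens are hydroxylated, folded, trimmed and cross-linked by a set of enzymes, and 22 of the 31 genes of this list were tested. None of the 22 was called (limma), 0 had higher and 2 had lower values at an unadjusted p under 0.05, and the median log2 fold change was -0.05. Over all tested genes, 5.47% had higher and 11.5% lower values at that p. Loxl3, a lysyl oxidase that cross-links fibers, had a log2 fold change of -0.44, and Bmp1, the protease that trims procollagen, one of -0.41. Pcolce, which enhances that trimming, had one of 0.29, and Ppib, a prolyl isomerase of the endoplasmic reticulum, one of 0.24. The other gene at an unadjusted p under 0.05 was Colgalt1, which adds galactose to collagen and was named after its value of -0.41 was seen.

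Of the receptors for collagens and laminins, 11 of 17 were tested and 0 were called, with 0 higher and 2 lower at an unadjusted p under 0.05. Of all tested genes, 5.47% were higher and 11.5% lower at that p. Gpc1, a cell surface proteoglycan, had a TPM of 48.6 and 66.8 in WT mice and 29.5 and 43.2 in Kdm3b+/- mice, a log2 fold change of -0.66 (limma, adjusted p = 0.197). Itga3, an integrin subunit that binds laminins, had a log2 fold change of -0.49. Lrp4, the receptor of agrin, and Itga6, another laminin-binding integrin subunit, had values of 0.20 each. The median of the 11 was -0.11.

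Of the matrix-degrading enzymes and their inhibitors, 11 of 16 were tested and 0 were called, with 0 higher and 5 lower at an unadjusted p under 0.05. The median log2 fold change was -0.29, against -0.07 over all tested genes, and the Kdm3b+/- mice lay below the WT mice without overlap for 8 of the 11, as 32.0% of all tested genes did. A lower value at an unadjusted p under 0.05 was found for 11.5% of all tested genes. Timp4, an inhibitor of matrix metalloproteinases, had a TPM of 582 and 420 in WT mice and 308 and 291 in Kdm3b+/- mice, a log2 fold change of -0.72 (limma, adjusted p = 0.112). Mmp9, a gelatinase, had a log2 fold change of -0.63. Mmp14, a membrane-bound collagenase, had a TPM of 5.77 and 7.18 in WT mice and 7.45 and 12.5 in Kdm3b+/- mice (log2 fold change 0.52, limma adjusted p = 0.297), and Ctsk a log2 fold change of 0.12.

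**Figure D5:**
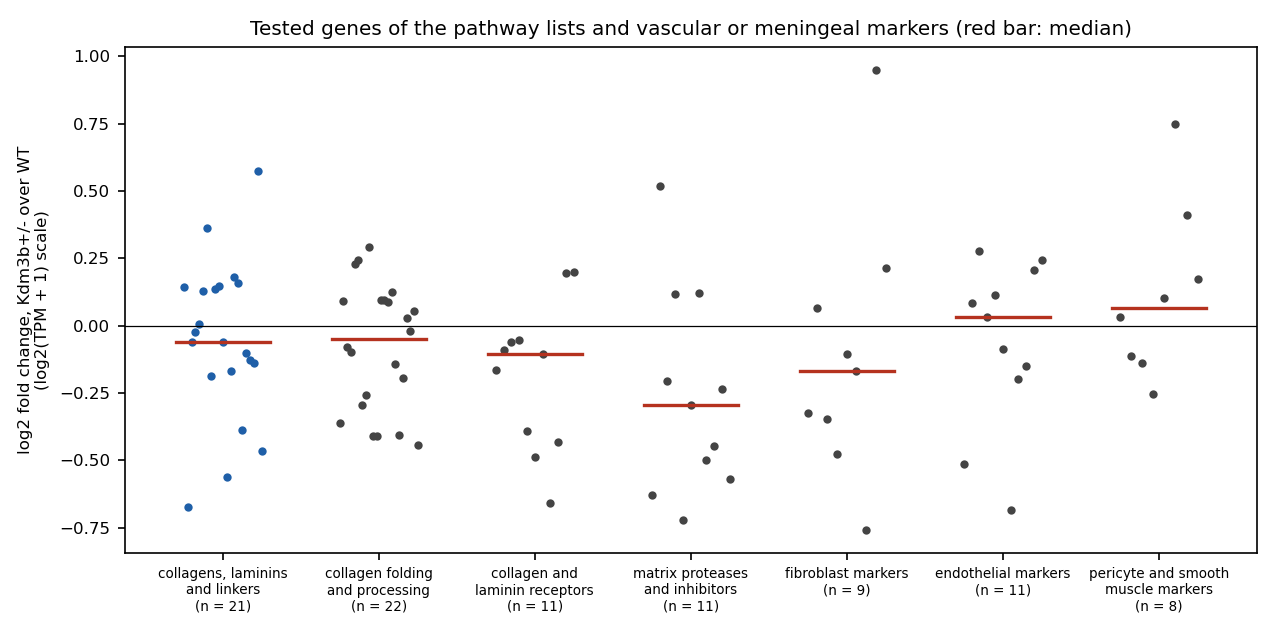
Log2 fold change of Kdm3b+/- over WT mice on the log2(TPM + 1) scale for each tested gene of the collagens, laminins and linkers, of 3 lists of other matrix genes and of 3 lists of vascular and meningeal markers, with 1 point per gene and the median as a red bar. The median is -0.06 for the first group and lowest, at -0.29, for the matrix proteases and inhibitors.

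Markers of the cells that make most brain collagen and laminin were read beside these results. Fibroblasts of the meninges and vessels had 9 of 12 markers tested, 0 called, 1 higher and 2 lower at an unadjusted p under 0.05, and a summed TPM of 56.4 to 64.8 in WT mice and 47.0 to 49.8 in Kdm3b+/- mice. Dcn, which encodes decorin, had a log2 fold change of -0.48 and Slc6a13 one of -0.76, while Lum, which encodes lumican, had one of 0.95 and Igf2, a growth factor, one of 0.21. Endothelial markers summed to 340 to 375 in WT mice and 346 to 363 in Kdm3b+/- mice (11 of 12 tested, 0 called, 0 higher and 1 lower). Among them, the transporter gene Slco1a4 had a log2 fold change of -0.68 and the adhesion gene Pecam1 of -0.51, and Emcn and Tie1 had 0.28 and 0.24. Pericyte and smooth muscle markers summed to 174 to 184 in WT mice and 190 to 221 in Kdm3b+/- mice (8 of 12 tested, 0 called, 2 higher and 0 lower). Here Higd1b had 0.75 and Rgs5 0.41, and the smooth muscle actin gene Acta2 had -0.25 and Pdgfrb, a receptor of pericytes, -0.14. None of the markers on these lists was at 0 in a library. At an unadjusted p under 0.05, 5.47% of all tested genes were higher and 11.5% lower. The fibroblast sum was lower in Kdm3b+/- mice through Dcn and Slc6a13, and the other markers of that list, taken as a sum, were not lower. Col18a1 and Col1a2 were lower as well, while Lum and the low fibrillar collagen Col3a1 were higher. Dcn, the highest marker of that list, had a TPM of 36.1 and 28.6 in WT mice and 23.4 and 22.2 in Kdm3b+/- mice. Slc6a13 had a TPM of 8.66 and 7.97 in WT mice and 3.29 and 6.07 in Kdm3b+/- mice. Of the 9 tested fibroblast markers, 3 had a log2 fold change above 0 and 6 below. The part of fibroblasts in the values of these collagens was not tested.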

How the data were processed

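RNA-seq of GCE tissue was analyzed for 2 WT and 2 Kdm3b+/- mice, grouped by the genotype in the labels. The authors trimmed the reads, aligned them with STAR, estimated gene abundance with StringTie and deposited, for each library, the coverage (mean read depth over a gene's exons), the FPKM and the TPM of 24532 NCBI genes. Coverage, as deposited, is not normalized; the FPKM values of the authors are scaled to length and mapped fragments, and the TPM values of the authors to length and a fixed library total. Tool versions, genome build and strand setting are not given in the sources used here; 99.6% of the genes lay on the chromosome given by RefSeq for GRCm38 and 90.5% started within 1 kb of its position. Depth was read from coverage divided by FPKM.

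TPM was summed over entries of the same gene. Symbols were found for 24462 genes. Genes with a mean TPM of 1 or more were fitted with limma 3.58.1 in R 4.3.3 (log2(TPM + 1), lmFit, eBayes with trend, genotype as the term, Benjamini-Hochberg adjustment over 13652 genes). TPM is not a count, so the count test of the study was not repeated. Separate mice are the replicates. The script was tested on simulated data. GENCODE transcripts of GRCm38 gave length and GC content for 12904 tested genes (94.5%) and 21 of 21 tested collagen, laminin and linker genes.

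The genes, the lists of other matrix genes and cell type markers, the tests and the alternatives were chosen with earlier results of these data known, and the lists support nothing by themselves. Values in every library are given for called genes, the 8 highest, the 5 largest increases and 5 largest decreases, the tested laminins, linkers and collagen IV chains, and Col18a1 and Col27a1, which the study itself lists as DEX genes from these libraries by its count test. From each other list, the 2 largest increases and 2 largest decreases are named; Kdm3b is named as a check of the labels. The values of 1 low gene are counted with the others and are not reported here by themselves. Low genes, Col7a1, Col13a1, Col23a1 and Colgalt1 were named after their values were seen. Alternatives changed the values (a pseudocount of 0.1, FPKM, 1 entry per gene), the filter (none, or a mean TPM of 5), the scaling (median-ratio, quantile, leaving out the 20 highest genes, or a loess correction for length and GC content), the fit (eBayes that was robust, with statmod 1.5.0, or had no trend, a block of replicate numbers, or that block after the loess correction), the threshold (adjusted p alone) and the libraries (leaving out 1 of them).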

Additional observations from a re-analysis of the deposited data

How the results depend on the processing

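No collagen, laminin or linker gene was called by limma under any of the 18 alternatives, with between 0 and 7 at an unadjusted p under 0.05, and the Kdm3b log2 fold change kept its sign without passing the test. The median over the 21 genes moved by less than the spread between replicates, and lay on both sides of 0. Of the 18 genes given by library, 8 kept their direction under every alternative that gave a value: Col11a2, Col17a1, Col18a1, Col1a2, Col27a1, Col4a2, Col6a1 and Nid1. The log2 fold change of Col18a1 ranged from -0.88 to -0.47 (adjusted p between 0.0651 and 0.556), that of Col27a1 from 0.39 to 0.76 (0.0899 to 0.567) and that of Col1a2 from -0.85 to -0.27 (0.111 to 0.966). With 1 library left out, Col17a1 ranged from -0.87 to -0.061, Col6a1 from -0.66 to -0.11, Col11a2 from 0.14 to 0.59, Lamb2 from -0.35 to -0.029, Col4a2 from 0.054 to 0.21 and Nid1 from 0.088 to 0.21. Agrn reversed to 0.033 with FPKM, 0.043 with median-ratio scaling and 0.083 with quantile normalization. After the length and GC correction, with or without the replicate block, Agrn was 0.086, Col9a2 0.074, Lamb2 0.012 and Lamb3 0.093. With 1 library left out, where the lone library is assumed to vary like the other group, log2 fold changes ranged from -0.20 to 0.15 for Agrn, -0.12 to 0.44 for Col16a1, -0.00054 to 0.36 for Col19a1, -0.38 to 0.035 for Col4a1, -0.42 to 0.17 for Col9a2, -0.22 to 0.50 for Col9a3, -0.029 to 0.043 for Lama2, -0.42 to 0.14 for Lamb3 and -0.23 to 0.024 for Lamc1. The cause of these reversals was not tested.

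Across all genes, 63 were called (16 higher, 47 lower). The count was 39 with FPKM (14 higher, 25 lower), 61 with median-ratio scaling (23 higher, 38 lower), 37 without trend, and 1 without a filter, where 2418 genes had an unadjusted p under 0.05. It was 21 without WT mouse 1, 28 without WT mouse 2, 121 without Kdm3b+/- mouse 1 and 188 without Kdm3b+/- mouse 2. With the replicate number as a block it was 600, and 3 other matrix genes were called in place of 0. Deviations of same-numbered libraries correlated at 0.121 over 13652 genes and at 0.0229 after the length and GC correction. The labels do not say whether the numbers pair the mice. The block also called 4 Purkinje, 6 astrocyte, 3 oligodendrocyte and 1 each of the granule cell, fibroblast, endothelial and pericyte markers, where 0, 1, 1 and 0 were called without it, and none of the 21 genes. The count of the 21 genes with the higher value in mouse 2 was 18 in WT and 19 in Kdm3b+/- mice. After the length and GC correction it was 7 and 14, and under quantile normalization 19 and 14. These alternatives were chosen after seeing the data and are given without the share over all genes.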

Other observations

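Cells other than those of vessels and meninges were read from lists of 12 markers each. Granule cell markers had a median log2 fold change of 0.01, with 0 called by limma, 2 higher and 1 lower at an unadjusted p under 0.05. Over all tested genes, 5.47% were higher and 11.5% lower at that p. Zic1, a transcription factor of granule cells, had a TPM of 15.4 and 12.5 in WT mice and 20.3 and 22.1 in Kdm3b+/- mice, and Cbln1, a secreted organizer of parallel fiber synapses, had a log2 fold change of 0.41. Cbln3, its partner, had one of -0.43 and Slc17a7, a vesicular glutamate transporter, one of -0.46. Purkinje cell markers had a median of -0.50, 0 called, and 0 higher and 4 lower. Their summed TPM in WT mouse 2, 893, lay below the 1146 and 955 of the Kdm3b+/- mice, so the median leans on WT mouse 1. Homer3, a scaffold of postsynaptic densities, had a log2 fold change of -1.08. Its TPM was 35.1 in WT mouse 1, 19.1 in WT mouse 2 and 12.8 and 10.8 in Kdm3b+/- mice. Calb1 had one of -0.69, with a TPM of 422 in WT mouse 1, the library that stood apart in these markers, and 160, 191 and 136 in WT mouse 2 and the Kdm3b+/- mice, so its groups overlapped, while Pcp2 was at -0.06 and Pvalb at 0.00077.

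Glial lists moved in mixed directions. Astrocyte and Bergmann glia markers had a median log2 fold change of -0.48, with 2 higher and 7 lower at an unadjusted p under 0.05. Of all tested genes, 5.47% were higher and 11.5% lower at that p. Aqp4, the water channel of astrocyte endfeet that face the vascular basement membrane, was called as higher: its TPM was 59.2 and 82.3 in WT mice and 150 and 152 in Kdm3b+/- mice (log2 fold change 1.10, limma adjusted p = 0.0329). Hopx had a log2 fold change of 0.53, Fgfr3 of -0.89 and Gdf10 of -1.03. Of the oligodendrocyte markers, Mobp, a myelin protein, was called as lower, with a TPM of 925 and 893 in WT mice and 471 and 482 in Kdm3b+/- mice (log2 fold change -0.93, limma adjusted p = 0.0133). Ugt8a and Opalin had log2 fold changes of 0.72 and 0.69 and Cnp of -0.19, and the median of the list was -0.02. Microglia markers had a median of 0.09, 0 called, 2 higher and 0 lower, with Aif1 at 0.57, Trem2 at 0.44, Csf1r at -0.40 and C1qa near 0. Of 8 choroid plexus markers 2 were tested, Otx2 at 0.10 and Clic6 at -0.71, and Ttr and Folr1 were listed at 0 in a library.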
